A study of Mus musculus with 4 samples.

Results

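Glypicans and syndecans are the families of cell-surface core proteins that carry heparan sulfate. The mouse genes are Gpc1 to Gpc6, whose products are tethered to the outer membrane leaflet by a glycosylphosphatidylinositol anchor, and Sdc1 to Sdc4, whose products cross the membrane and have a short cytoplasmic tail. They were chosen by gene symbol, which gave 6 glypicans and 4 syndecans, 10 of the 55471 rows of the count table. No measured value enters that rule, but the families were taken up with earlier results of these libraries known, the high Gpc3 count of the GFP-positive fraction among them. The fits of these genes are therefore given as a description and not as independent support.

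The libraries came from retinas of C57BL6 mice at postnatal day 6 to 7 that carried the Gbx2-CreERT2-IRES-EGFP allele together with Ai9, so that tamoxifen-dependent Cre made from the Gbx2 locus switches on tdTomato and the same locus drives EGFP. The tdTomato cells were split by flow cytometry into a GFP-positive fraction (replicates 2 and 3) and a GFP-negative fraction (replicates 2 and 6), so both fractions carry all of these alleles and differ in the GFP gate. The submitters call the GFP-positive cells amacrine cell type 2 and the GFP-negative cells amacrine cell type 1, state 4 biological replicates from 3 litters, and used 750 to 2500 sorted cells per RNA sample. The 4 libraries analysed here are 2 per fraction. A p-value therefore rests on the spread between so few libraries and on variance that the fit borrows from other genes. The sources used here do not give the sex of the animal behind each library.

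Amacrine cells are inhibitory interneurons of the inner retina, which at this age are still arranging their dendrites and synapses. Heparan sulfate chains bind secreted growth factors, morphogens and guidance cues, and the core protein decides where on the cell the chains are held and how they are released. Glypicans are best known as modulators of hedgehog, Wnt, BMP and FGF signalling and, in the nervous system, as ligands of synaptic receptors. Syndecans act as co-receptors and as links to the cytoskeleton.

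RefSeq windows of 250 bases upstream of the start (build GRCm38.p6) were matched by symbol for 7 of the 10 genes, with no entry for Gpc1, Gpc6 and Sdc2. The 3 below are shown because Gpc3 and Sdc4 were the genes with higher counts in each GFP-positive library and Sdc3 was the most abundant syndecan of that fraction, and because none of their bases lies in a GENCODE exon. The Sdc4 window lies within the GENCODE span of its gene, since RefSeq starts that gene further downstream. Each is printed 5′ to 3′ on the gene's strand, with capitals for the GC box (GGGCGG or its reverse complement CCGCCC) and the CCAAT box (CCAAT or ATTGG).
Gpc3, chrX:52613975-52614224, minus strand: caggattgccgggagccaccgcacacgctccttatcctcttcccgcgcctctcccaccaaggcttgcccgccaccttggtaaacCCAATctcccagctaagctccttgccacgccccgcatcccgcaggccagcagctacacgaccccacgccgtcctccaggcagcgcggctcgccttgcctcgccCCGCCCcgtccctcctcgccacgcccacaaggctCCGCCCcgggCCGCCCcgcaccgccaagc
Sdc4, chr2:164443189-164443438, minus strand: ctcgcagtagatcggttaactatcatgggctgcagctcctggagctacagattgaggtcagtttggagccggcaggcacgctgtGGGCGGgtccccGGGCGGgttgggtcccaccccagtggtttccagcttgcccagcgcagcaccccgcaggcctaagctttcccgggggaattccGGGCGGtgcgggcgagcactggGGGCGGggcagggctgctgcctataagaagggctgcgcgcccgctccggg
Sdc3, chr4:130792287-130792536, plus strand: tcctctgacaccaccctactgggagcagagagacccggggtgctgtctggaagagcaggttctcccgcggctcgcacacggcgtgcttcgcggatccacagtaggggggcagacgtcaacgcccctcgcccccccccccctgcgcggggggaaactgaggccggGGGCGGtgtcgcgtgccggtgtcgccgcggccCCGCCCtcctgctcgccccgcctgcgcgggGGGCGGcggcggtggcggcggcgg
The Gpc3 window holds 3 GC boxes, 1 CCAAT box and 25 CG dinucleotides. The Sdc4 window holds 4 GC boxes and 19 CG dinucleotides, and the Sdc3 window 3 GC boxes and 32 CG dinucleotides, neither with a CCAAT box. Over the 32851 windows of the table the median was 6 CG dinucleotides, 32.7% held a GC box and 33.8% a CCAAT box on either strand. No marked motif overlaps another, and neither the letters TATAAA, found in 12.4% of all windows, nor the homeodomain core TAATTA, found in 4.84%, occurs in these 3 windows on either strand. A match is a string of letters and was not tested as a binding site.

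The GFP gate was checked first on its own gene. Gbx2, the homeobox transcription factor whose locus carries the reporter, had 602 and 496 CPM (counts scaled to equal library size, with edgeR's TMM factors) in GFP-positive libraries and 28.7 and 55.5 CPM in GFP-negative libraries. Library totals were 44689917 and 43272827 counts in the GFP-positive fraction and 41153704 and 41040667 counts in the GFP-negative fraction. Of 17940 genes tested with edgeR's quasi-likelihood test, 198 passed an adjusted p of 0.05, which is 1.10%, with 42 higher and 156 lower in the GFP-positive fraction (0.234% and 0.870%). The CPM ranges of the fractions did not overlap for 43.8% of the tested genes.

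All 10 genes passed the filter on low counts. Gpc3 was higher and Sdc2 was lower in the GFP-positive fraction at an adjusted p under 0.05, so 1 of the 10 genes was called in each direction, beside a background of 0.234% and 0.870% of all genes. Ranges were separate for 7 of the 10 genes, higher in GFP-positive libraries for Gpc3 and Sdc4 and lower for Gpc1, Gpc4, Gpc6, Sdc2 and Sdc3, against 43.8% of all genes. For the 10 genes the log2 fold change had a median of -0.28, against 0.04 for all genes tested. Its absolute size had a median of 0.82 over the 10 genes and 0.47 over all genes tested. The fractions are bulk RNA, in which a larger share of cells with a transcript and more of it per cell cannot be told apart.

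**Figure D1:**
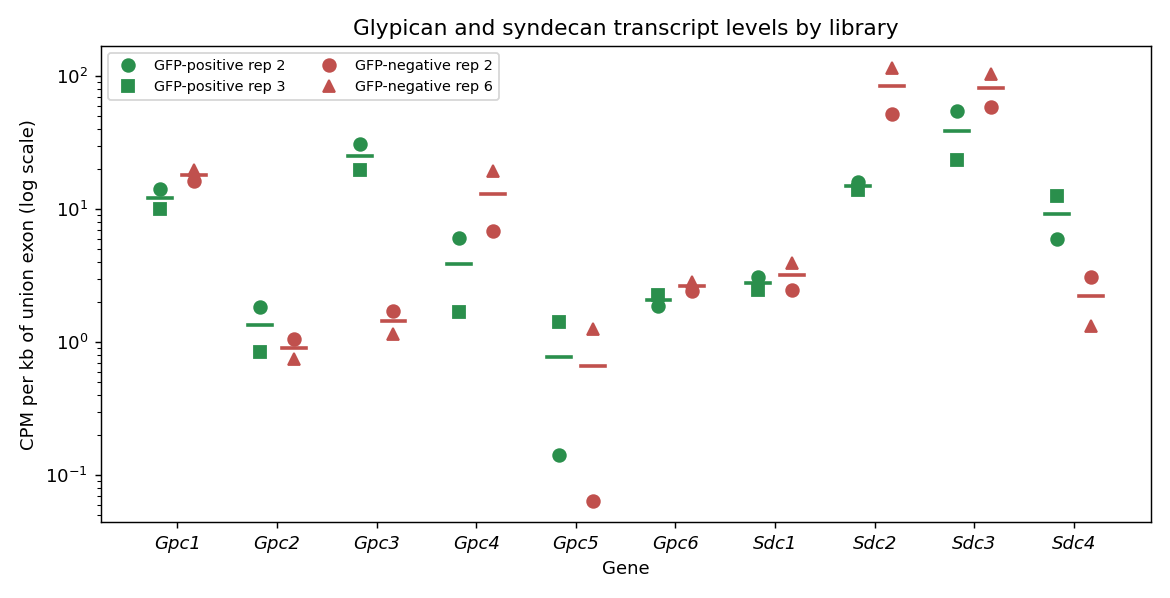
Level of the 10 genes in each library, as CPM per kilobase of union exon on a log axis (vertical) by gene (horizontal). Symbols are single libraries and bars are fraction means (n = 2), green for GFP-positive and red for GFP-negative. Gpc3 stood at 30.9 and 19.7 in GFP-positive libraries against 1.72 and 1.15 in GFP-negative libraries, while Sdc2 stood at 15.9 and 14.04 in GFP-positive libraries against 51.6 and 116 in GFP-negative libraries.

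Gpc3 binds hedgehog ligands at the cell surface and competes for them with the receptor Patched. Its loss causes the overgrowth disorder Simpson-Golabi-Behmel syndrome in humans. It lies on the X chromosome (GENCODE M21, GRCm38, chrX:52272426-52613950, minus strand). Gpc3 had 83.1 and 53.0 CPM in GFP-positive libraries (3800 and 2521 counts), against 4.64 and 3.10 CPM in GFP-negative libraries (194 and 111 counts). Both GFP-positive libraries were far above both GFP-negative libraries, and the lowest pairing of a GFP-positive with a GFP-negative library still differed by 3.51 on the log2 scale. The ratio of the fraction means was 17.6 and the fitted log2 fold change 4.13 ± 0.43 (SE, edgeR adjusted p = 0.0107). Leaving out GFP-negative replicate 6 gave a log2 fold change of 3.88 and lost the call. That fit has 1 library in the GFP-negative fraction and lost nearly all calls of the series. With any other library left out it passed, at edgeR adjusted p-values of 0.0304, 0.0425 and 0.0197 for GFP-positive replicate 2, replicate 3 of the same fraction and GFP-negative replicate 2.

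Gpc4, the neighbour of Gpc3 on the X chromosome, belongs to the other glypican subfamily. In mice it is known as an astrocyte-secreted protein that promotes excitatory synapses on retinal ganglion cells. It had 16.1 and 4.46 CPM in GFP-positive libraries and 18.3 and 51.1 CPM in GFP-negative libraries. The ranges did not overlap, but GFP-positive replicate 2 and GFP-negative replicate 2 were nearly level, and the libraries of each fraction differed among themselves by a factor of 3.62 (GFP-positive) and 2.78 (GFP-negative). The fitted log2 fold change of -1.75 ± 0.66 did not pass (SE, edgeR adjusted p = 0.322).

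Gpc1, a glypican of neurons that acts as an FGF co-receptor, had 73.0 and 51.6 CPM in GFP-positive libraries and 84.6 and 102 CPM in GFP-negative libraries. The ranges were separate by a narrow margin and the log2 fold change was -0.58 ± 0.32 (SE, edgeR adjusted p = 0.504). Gpc1 shares 977 exon bases with Ankmy1 on the opposite strand, and no source used here states the strand setting of the counting. Ankmy1 had 77 and 118 counts in GFP-positive libraries and 6 and 11 counts in GFP-negative libraries, which is small beside Gpc1.

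The remaining glypicans were scarce and did not pass. Gpc6, which is a relative of Gpc4 with the same reported synaptic role, had 12.1 and 14.4 CPM in GFP-positive libraries and 15.5 and 18.3 CPM in GFP-negative libraries, separate ranges with a log2 fold change of -0.35 ± 0.40. Gpc2, a glypican of developing neurons, had 7.81 and 3.62 CPM in GFP-positive libraries and 4.49 and 3.21 CPM in GFP-negative libraries. Gpc2 ranges overlapped, with a log2 fold change of 0.56 ± 0.63. It shares 2376 exon bases with Gm43720, a protein-coding gene on the same strand. Gm43720 had 2 and 0 counts in GFP-positive libraries and 0 and 0 counts in GFP-negative libraries. No source used here states how reads in shared bases were counted, and the part of this overlap in the Gpc2 level was not tested. Gpc5, the only other member of the Gpc3 subfamily, had 0.634 and 6.27 CPM in GFP-positive libraries and 0.287 and 5.64 CPM in GFP-negative libraries. Its levels split by library and not by fraction, with both replicates numbered 2 low and the other library of each fraction high. The fitted log2 fold change of Gpc5 was 0.28 ± 1.18, and edgeR adjusted p-values were 0.785 for Gpc6, 0.780 for Gpc2 and 0.956 for Gpc5.

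Sdc2 is the syndecan that promotes dendritic spine formation in rat hippocampal neurons. It lies on chromosome 15 (chr15:32920723-33034935, plus strand) and had 56.1 and 49.5 CPM in GFP-positive libraries, against 182 and 409.9 CPM in GFP-negative libraries. The GFP-positive libraries were close to each other, and the GFP-negative libraries, both higher, differed from each other by a factor of 2.25. The ratio of GFP-negative over GFP-positive means was 5.61 and the fitted log2 fold change -2.49 ± 0.43 (SE, edgeR adjusted p = 0.0371). Among the leave-one-out fits, that without GFP-negative replicate 2 alone kept this call (edgeR adjusted p = 0.0143). Leaving out GFP-positive replicate 2 gave 0.139, leaving out replicate 3 of that fraction gave 0.313, and leaving out GFP-negative replicate 6 gave 0.212. It was also lost with no filter on low counts (edgeR adjusted p = 0.0738), with limma-voom (0.0580) and with edgeR's older quasi-likelihood fit (0.115), each with a log2 fold change between -2.53 and -2.38.

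Sdc3, or N-syndecan, is the main syndecan of neurons and a receptor for pleiotrophin. It had 327 and 140.1 CPM in GFP-positive libraries and 349 and 623 CPM in GFP-negative libraries. The replicates numbered 2 of the fractions were almost level and the gap lay in the other library of each. The log2 fold change was -1.06 ± 0.48 (SE, edgeR adjusted p = 0.414). Antisense genes that share exon bases with Sdc3, Gm12970 and Gm26716, had 0 counts in all 4 libraries.

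Sdc4, a syndecan of focal adhesions whose tail binds protein kinase C alpha, had 15.1 and 32.0 CPM in GFP-positive libraries, against 7.94 and 3.38 CPM in GFP-negative libraries. Both GFP-positive libraries were higher, by 0.93 on the log2 scale at the closest pairing. The log2 fold change of 2.05 ± 0.57 did not pass in edgeR (SE, adjusted p = 0.184) and passed in DESeq2 (adjusted p = 0.0221). Sdc1, the epithelial syndecan, had 11.7 and 9.48 CPM in GFP-positive libraries and 9.47 and 14.997 CPM in GFP-negative libraries. Sdc1 ranges overlapped, with a log2 fold change of -0.20 ± 0.46 (SE, edgeR adjusted p = 0.904).

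**Figure D2:**
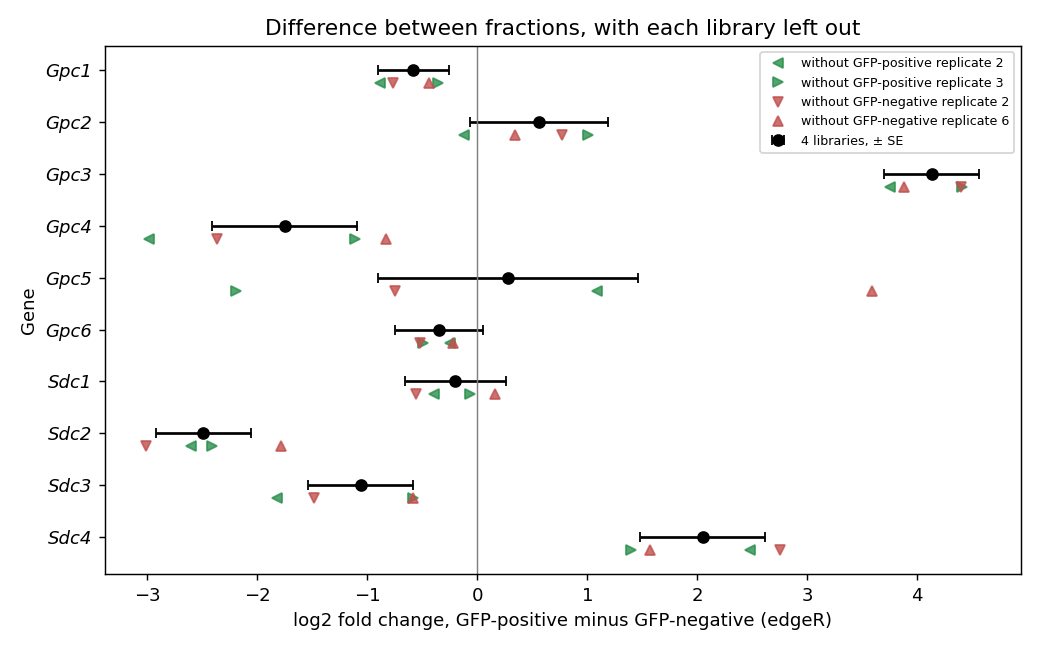
Log2 fold change of each gene, GFP-positive minus GFP-negative (horizontal), by gene (vertical). Black points are the edgeR estimate from 4 libraries with its SE, and coloured triangles the estimate with the named library left out. Gpc3 stayed between 3.75 and 4.41 and Sdc2 between -3.01 and -1.78, while Gpc5 ranged from -2.19 to 3.59.

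Per kilobase of exon, the scale on which levels of different genes can be compared, the order of the genes differed between the fractions. In the GFP-positive fraction Sdc3 came first (39.0 ± 22.04 CPM per kilobase, mean ± SD, n = 2) and Gpc3 next (25.3 ± 7.91), with overlapping ranges. Sdc2 followed at 14.97 ± 1.32, separate from Gpc3, and then Gpc1 at 12.1 ± 2.92 and Sdc4 at 9.26 ± 4.70. Neighbours from Sdc2 down to Sdc1 overlapped in range. In the GFP-negative fraction Sdc2 (83.9 ± 45.7) and Sdc3 (81.1 ± 32.4) led with overlapping ranges, separate from Gpc1 (18.1 ± 2.40) and Gpc4 (13.1 ± 8.73). Gpc3 was eighth there at 1.44 ± 0.404, and Gpc2 and Gpc5 were lowest in both fractions.

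The makeup of the family, each gene as a percent of the sum over the 10 genes in its own library, does not depend on the library scaling. Gpc3 made up 23.0% and 22.3% of the sum in GFP-positive libraries and 1.20% and 0.426% in GFP-negative libraries. Sdc2 made up 11.8% and 15.9% in GFP-positive libraries and 35.8% and 43.0% in GFP-negative libraries. The shares of the other abundant members were closer or varied more within a fraction: Sdc3 was at 40.6% and 26.5% in GFP-positive libraries and 40.4% and 38.4% in GFP-negative libraries, and Gpc1 at 10.5% and 11.3% in GFP-positive libraries against 11.4% and 7.32% in GFP-negative libraries.

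Glypicans together were 40.9% and 40.6% of the sum in GFP-positive libraries, against 19.8% and 16.7% in GFP-negative libraries, and syndecans were the rest. The share was nearly the same in both GFP-positive libraries although their Sdc3 and Sdc4 shares differed, with Sdc4 at 4.41% and 14.2%. As levels, the glypican sum was 55.0 and 35.9 CPM per kilobase in GFP-positive libraries and 28.6 and 45.1 in GFP-negative libraries, which overlap. The syndecan sum was 79.5 and 52.5 CPM per kilobase in GFP-positive libraries and 115 and 225.5 in GFP-negative libraries, which do not. Gpc3 over Gpc4, per kilobase, was 5.07 and 11.7 in GFP-positive libraries and 0.249 and 0.0598 in GFP-negative libraries, and Gpc3 over Sdc2 was 1.94 and 1.40 in GFP-positive libraries against 0.0334 and 0.00992 in GFP-negative libraries. With 2 libraries a fraction these shares were not tested.

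**Figure D3:**
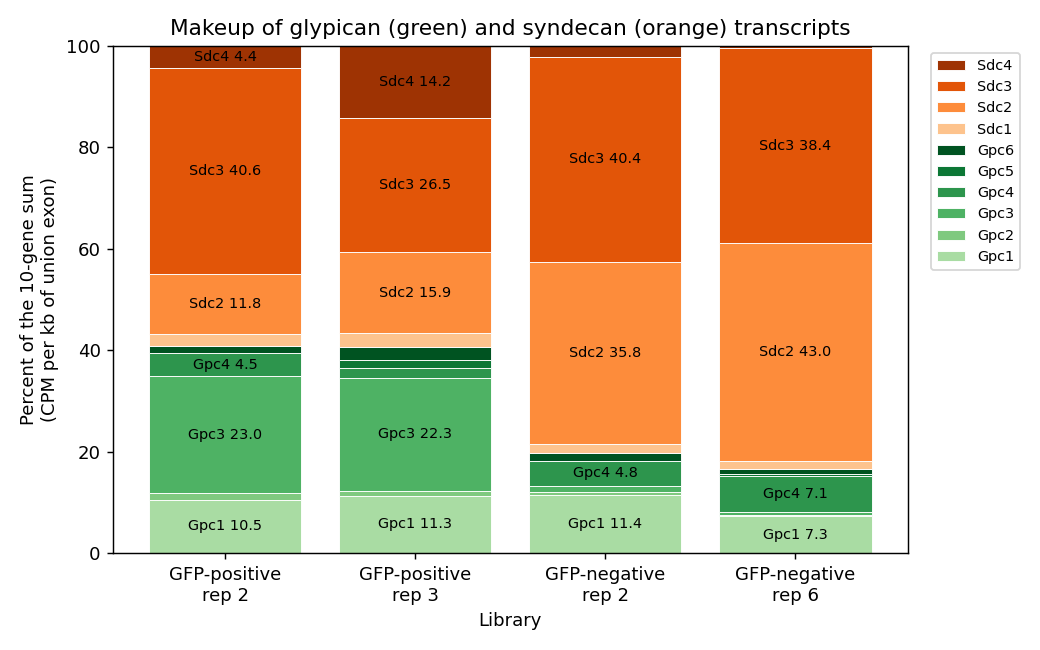
Share of each gene in the 10-gene sum of CPM per kilobase (vertical, percent) for each library (horizontal), glypicans in green and syndecans in orange. The green block is 40.9% and 40.6% in GFP-positive libraries against 19.8% and 16.7% in GFP-negative libraries, and most of the gap is Gpc3.

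The enzymes that build heparan sulfate, its other carriers and its partners were read from 12 lists of 110 genes, of which 102 were tested. None was higher and 5 were lower in the GFP-positive fraction by edgeR, beside 0.234% and 0.870% of all genes, and the median log2 fold change was -0.20. At an unadjusted p under 0.05, 4 were higher and 18 lower, where 5.24% and 7.34% of all genes were. DESeq2 called 0 higher and 10 lower, where it called 1.16% and 3.26% of all genes. With limma-voom 0 were higher and 2 lower, where 0.0948% and 0.418% of all genes were. The counts by list below stand beside these same shares.

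Of the 10 other heparan sulfate core proteins 0 passed in edgeR or limma-voom and 1 was lower in DESeq2, with 0 higher and 2 lower at an unadjusted p under 0.05. Agrn, or agrin, a matrix proteoglycan that organises synapses, had 292 and 211 CPM in GFP-positive libraries and 173 and 162 CPM in GFP-negative libraries, separate ranges with an edgeR adjusted p of 0.514. Spock3, a testican of the nervous system, had 714 and 334 CPM in GFP-positive libraries against 598 and 1149 CPM in GFP-negative libraries, which overlap. Its relative Spock2 had 65.3 and 65.9 CPM in GFP-positive libraries and 86.2 and 135.9 CPM in GFP-negative libraries, separate ranges with an edgeR adjusted p of 0.387.

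The linker and the chain itself showed no call. No gene of the 7 linker enzymes or 5 polymerases passed at an adjusted p of 0.05 in edgeR, DESeq2 or limma-voom, and 0 had an unadjusted edgeR p under 0.05. Ext2, a subunit of the polymerase, had 155 and 125 CPM in GFP-positive libraries and 117 and 161 CPM in GFP-negative libraries. Extl3, which starts heparan sulfate chains, had 87.1 and 54.3 CPM in GFP-positive libraries and 67.0 and 55.4 CPM in GFP-negative libraries, and B3gat3, which completes the linker, had 105 and 109.6 CPM in GFP-positive libraries against 101 and 149 CPM in GFP-negative libraries. The fractions overlapped for these 3 genes. B4galt7, which adds the first galactose of the linker, overlapped too, at 41.3 and 44.8 CPM in GFP-positive libraries and 38.2 and 59.3 CPM in GFP-negative libraries, as did Extl2, at 119.7 and 80.7 CPM in GFP-positive libraries against 113 and 189 CPM in GFP-negative libraries. B3galt6, which adds the next galactose, was at 39.6 and 33.7 CPM in GFP-positive libraries and 51.9 and 64.1 CPM in GFP-negative libraries, separate ranges with an edgeR adjusted p of 0.427.

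Of the 5 N-deacetylase-sulfotransferases and epimerase, 1 was called. Ndst1, the main N-deacetylase-sulfotransferase, overlapped between the fractions at 194 and 149 CPM in GFP-positive libraries and 155 and 167 CPM in GFP-negative libraries. Ndst3, a paralog found mainly in brain, fell to 7.11 and 5.15 CPM in GFP-positive libraries, against 27.0 and 33.7 CPM in GFP-negative libraries (log2 fold change -2.31, edgeR adjusted p = 0.0439). Ndst2 and the epimerase Glce did not pass (edgeR adjusted p of 0.690 and 0.402). Ndst2 had 43.002 and 31.4 CPM in GFP-positive libraries and 53.3 and 43.5 CPM in GFP-negative libraries, and Glce had 38.6 and 18.5 CPM in GFP-positive libraries against 52.3 and 53.7 CPM in GFP-negative libraries, both with separate ranges.

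Of 10 tested O-sulfotransferases 0 passed in edgeR and 1 in DESeq2, 0 higher and 3 lower at an unadjusted p under 0.05, with limma-voom calling 0. Hs2st1, the 2-O-sulfotransferase, had 124 and 84.4 CPM in GFP-positive libraries and 104 and 165 CPM in GFP-negative libraries. Hs3st3b1, a 3-O-sulfotransferase, was at 86.3 and 63.4 CPM in GFP-positive libraries against 67.9 and 9.02 CPM in GFP-negative libraries. Its ranges overlapped narrowly, and GFP-negative replicate 6 lay far below the other libraries. Hs3st1, of the same class, overlapped at 29.3 and 21.6 CPM in GFP-positive libraries and 15.7 and 23.8 CPM in GFP-negative libraries. Sulf2, which removes 6-O-sulfate outside the cell, overlapped at 71.3 and 66.9 CPM in GFP-positive libraries and 71.1 and 93.2 CPM in GFP-negative libraries, as did its paralog Sulf1 at 14.3 and 5.11 CPM in GFP-positive libraries against 8.32 and 6.34 CPM in GFP-negative libraries. Hpse, the heparanase that cuts the chains, was scarce, at 3.35 and 1.98 CPM in GFP-positive libraries and 0 and 0.475 CPM in GFP-negative libraries, separate ranges with an edgeR adjusted p of 0.259.

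Among proteases that release core proteins, Mmp9, a secreted metalloproteinase, fell to 1.31 and 2.65 CPM in GFP-positive libraries, against 29.7 and 32.9 CPM in GFP-negative libraries (log2 fold change -3.98, edgeR adjusted p = 0.0125). The sheddase Adam10 had 129.7 and 50.6 CPM in GFP-positive libraries and 75.4 and 113 CPM in GFP-negative libraries, and the convertase Furin had 95.9 and 64.6 CPM in GFP-positive libraries against 80.5 and 67.1 CPM in GFP-negative libraries, both with overlapping ranges.

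The syndecan tail partners numbered 8 and none was called by edgeR, DESeq2 or limma-voom, with 0 higher and 1 lower at an unadjusted p under 0.05. Cask, a scaffold that binds syndecan tails, had 124 and 73.3 CPM in GFP-positive libraries and 184 and 223 CPM in GFP-negative libraries, separate ranges with an edgeR adjusted p of 0.274. Prkca, the protein kinase C alpha bound by Sdc4, had 88.2 and 101.7 CPM in GFP-positive libraries and 124.9 and 159 CPM in GFP-negative libraries, also separate (edgeR adjusted p = 0.488), and Gipc1, an adaptor, overlapped at 82.8 and 91.5 CPM in GFP-positive libraries against 81.3 and 112.8 CPM in GFP-negative libraries.

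Receptors that use heparan sulfate in neurons gave 2 of the calls. Lrrtm3, a postsynaptic adhesion protein, fell to 4.66 and 6.62 CPM in GFP-positive libraries, against 28.9 and 57.6 CPM in GFP-negative libraries (log2 fold change -2.94, edgeR adjusted p = 0.0293). Unc5d, a guidance receptor that binds FLRT proteins, fell to 17.3 and 11.3 CPM in GFP-positive libraries, against 58.4 and 79.9 CPM in GFP-negative libraries (log2 fold change -2.27, edgeR adjusted p = 0.0300). Ptprs, a phosphatase receptor for glypicans, overlapped at 799 and 507 CPM in GFP-positive libraries and 621 and 598 CPM in GFP-negative libraries, as did its relative Ptprf (233 and 116 CPM in GFP-positive libraries against 194 and 315 CPM in GFP-negative libraries). The Slit receptor gene Robo1 had 262 and 99.0 CPM in GFP-positive libraries and 262 and 409 CPM in GFP-negative libraries, where the libraries numbered 2 were level. The list of 14 genes also holds the secreted ligands Slit1 and Slit2, at log2 fold changes of -1.66 and -1.11. Across these 14 genes the median log2 fold change was -0.72, with 11 negative, where 47.6% of all genes were. At an unadjusted p under 0.05, 1 gene of the list was higher and 5 lower. DESeq2 called 4 lower and limma-voom 0, with Lrrtm3 at an adjusted p of 0.0836 and Unc5d at 0.0524 in limma-voom.

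The hedgehog list, relevant to Gpc3, had 0 of 11 tested genes called by edgeR, DESeq2 or limma-voom, and 1 higher and 2 lower at an unadjusted p under 0.05. Ptch1, the hedgehog receptor, had 56.9 and 57.9 CPM in GFP-positive libraries against 37.4 and 26.7 CPM in GFP-negative libraries (edgeR adjusted p = 0.331). Hhip, a hedgehog-binding inhibitor, had 0.0219 and 4.50 CPM in GFP-positive libraries against 28.7 and 53.3 CPM in GFP-negative libraries, separate but not passing (edgeR adjusted p = 0.0925). Gas1, a hedgehog co-receptor, overlapped at 48.1 and 46.1 CPM in GFP-positive libraries against 46.9 and 64.5 CPM in GFP-negative libraries.

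Chondroitin sulfate is made on the same linker, and Csgalnact1, which starts its chains, fell to 4.22 and 5.49 CPM in GFP-positive libraries against 46.3 and 101 CPM in GFP-negative libraries (log2 fold change -3.92, edgeR adjusted p = 0.0125). Chsy1, a chondroitin synthase, was at 56.8 and 55.3 CPM in GFP-positive libraries and 50.1 and 28.4 CPM in GFP-negative libraries. Chpf, its partner, was at 109.9 and 89.7 CPM in GFP-positive libraries against 120.9 and 162.6 CPM in GFP-negative libraries, and the sulfotransferase Chst12 at 22.9 and 33.8 CPM in GFP-positive libraries against 34.7 and 51.1 CPM in GFP-negative libraries. The ranges of these 3 were separate, higher for Chsy1 and lower for Chpf and Chst12, and none passed. The 13 tested enzymes of that list besides Csgalnact1 and the 8 tested chondroitin sulfate core proteins were not called by edgeR. With Csgalnact1 included, DESeq2 called 0 enzymes higher and 2 lower, and limma-voom 0 higher and 1 lower. Neither tool called a core protein. At an unadjusted edgeR p under 0.05, 0 enzymes were higher and 2 lower, and 0 core proteins were higher and 1 lower. Cspg5, the most abundant of those core proteins, had 238 and 309.9 CPM in GFP-positive libraries and 303 and 431 CPM in GFP-negative libraries. Ncan overlapped at 76.7 and 36.0 CPM in GFP-positive libraries against 44.5 and 99.4 CPM in GFP-negative libraries, and Ptprz1 was at 47.6 and 42.2 CPM in GFP-positive libraries against 32.1 and 14.4 CPM in GFP-negative libraries, separate ranges with an edgeR adjusted p of 0.402.

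The 5 calls each rest on particular libraries, with log2 fold changes that stayed negative. Ndst3 lost its call when any of the 4 libraries was left out, at edgeR adjusted p-values from 0.0584 to 0.374 and log2 fold changes from -2.58 to -2.10. Ndst3 also lost it with total-count scaling (edgeR adjusted p = 0.0612), with no filter (0.0728) and with limma-voom (adjusted p = 0.0772). With no filter Lrrtm3 (edgeR adjusted p = 0.0534) and Unc5d (0.0586) lost their calls too. With edgeR's older quasi-likelihood fit Ndst3 (adjusted p = 0.102), Mmp9 (0.0511), Lrrtm3 (0.0858) and Unc5d (0.0843) lost theirs, and Csgalnact1 kept its call (0.0470). Without GFP-negative replicate 6 the log2 fold change and edgeR adjusted p were -3.90 and 0.124 for Mmp9, -2.35 and 0.288 for Lrrtm3, -2.03 and 0.282 for Unc5d, and -3.25 and 0.107 for Csgalnact1. Without GFP-positive replicate 3 they were -4.58 and 0.0603 for Mmp9, -3.22 and 0.145 for Lrrtm3, -2.01 and 0.214 for Unc5d, and -4.13 and 0.0823 for Csgalnact1. Without GFP-positive replicate 2 the call of Lrrtm3 (edgeR adjusted p = 0.109), Unc5d (0.0618) and Csgalnact1 (0.0578) was lost as well, and that of Mmp9 was kept (0.0446).

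**Figure D4:**
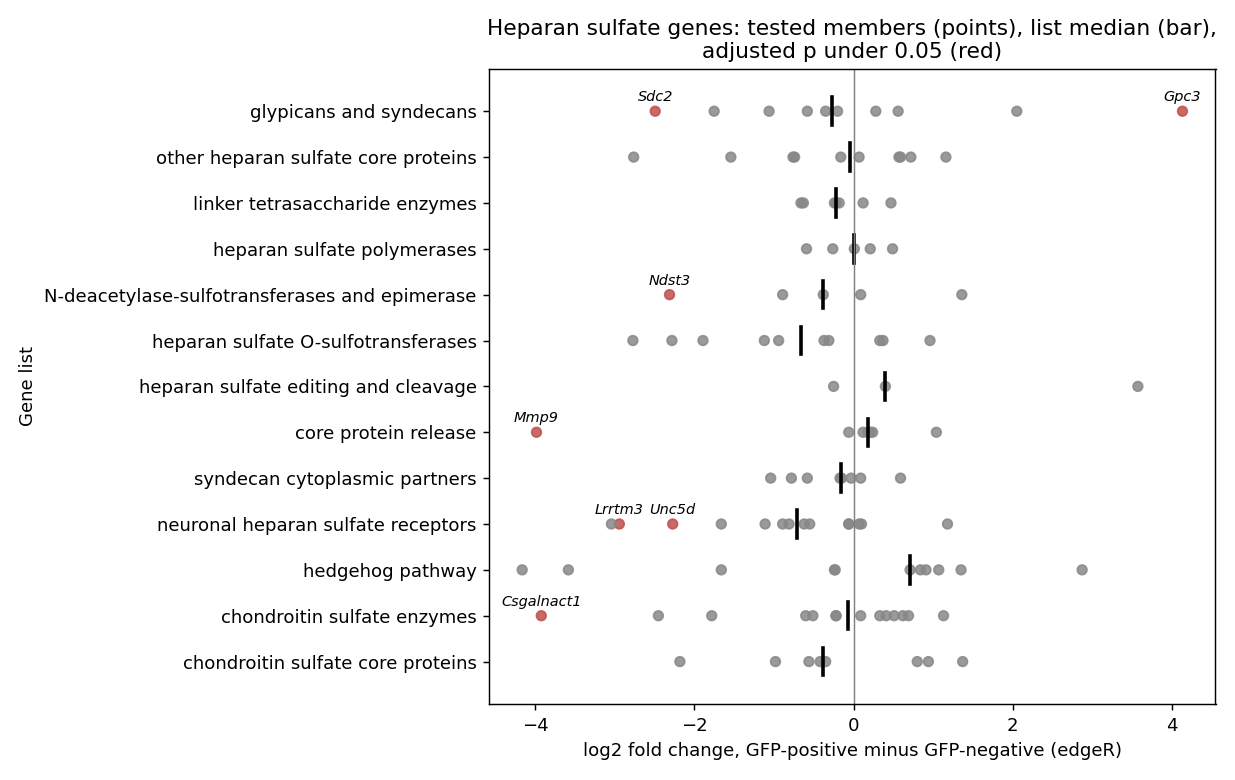
Log2 fold change, GFP-positive minus GFP-negative (horizontal), of every tested gene of the glypican and syndecan family and of the 12 lists (vertical). Points are genes, black bars list medians, and red points have an edgeR adjusted p under 0.05. Gpc3 at 4.13 is the only red point on the positive side, and Sdc2 lies at -2.49 among 5 other red points on the negative side.

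Profiles over the 4 libraries were compared by Euclidean distance between centred log2(CPM + 0.1) values. Candidates were the tested genes, leaving out mitochondrial genes, pseudogenes and genes with only a provisional or clone-type symbol. Among these the nearest to Gpc3 were Adamts5 at 0.314, Fbn2 at 0.485, Folr2 at 0.681, Tsga10ip at 0.692 and Col13a1 at 0.750. Folr2 and Tsga10ip were at 0 counts in both GFP-negative libraries and scarce in the others, so their distances depend on the added 0.1. Neither passed (edgeR adjusted p of 0.257 and 0.231). The nearest family member to Gpc3 was Sdc4, at 2.41. Nearest to Sdc2 were Hbegf at 0.145, Lsamp at 0.184, Nmrk2 at 0.195, Gabrb1 at 0.200 and Mdga1 at 0.202, and the nearest family member was Gpc4 at 1.30. Nmrk2 was at 0 counts in both GFP-positive libraries and at 0.239 and 0.586 CPM in GFP-negative libraries. Its distance also depends on the added 0.1, and it did not pass (edgeR adjusted p = 0.344).

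Markers of other retinal cells differed among the libraries. The sum of 16 rod markers was 11586 and 19568 CPM in GFP-positive libraries and 10174 and 2799 CPM in GFP-negative libraries, with all 16 higher in the fitted means, 13 with separate ranges and 0 called by edgeR, DESeq2 or limma-voom (5 at an unadjusted p under 0.05). The libraries stood in the same order for Sdc4 as for the rod sum, and in the reverse order for Gpc1, Gpc4, Sdc2 and Sdc3. That order was not particular to rods: the bipolar marker sum shared it, and the amacrine and ganglion cell marker sums had its reverse. Abundant genes weigh most in such sums, and the markers of a list did not all move alike. In the amacrine list ranges were separate and higher in GFP-positive libraries for 2 markers and lower for 9. In the ganglion cell list they were higher for 3 and lower for 4. The share of all genes in either order was not counted. Gpc3 stood in another order, with GFP-positive replicate 2 above GFP-positive replicate 3. Between GFP-positive replicate 2 and GFP-negative replicate 2, the libraries closest in rod sum, Gpc3 was 83.1 against 4.64 CPM and Sdc2 56.1 against 182 CPM, while Sdc4 was 15.1 against 7.94, Gpc4 16.1 against 18.3 and Sdc3 327 against 349. The log2 differences in that pair were 4.16 for Gpc3, -1.70 for Sdc2, 0.93 for Sdc4, -0.18 for Gpc4, -0.09 for Sdc3 and -0.21 for Gpc1. That pair leaves out the other library of each fraction, and the part of rod RNA in the results was not tested.

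**Figure D5:**
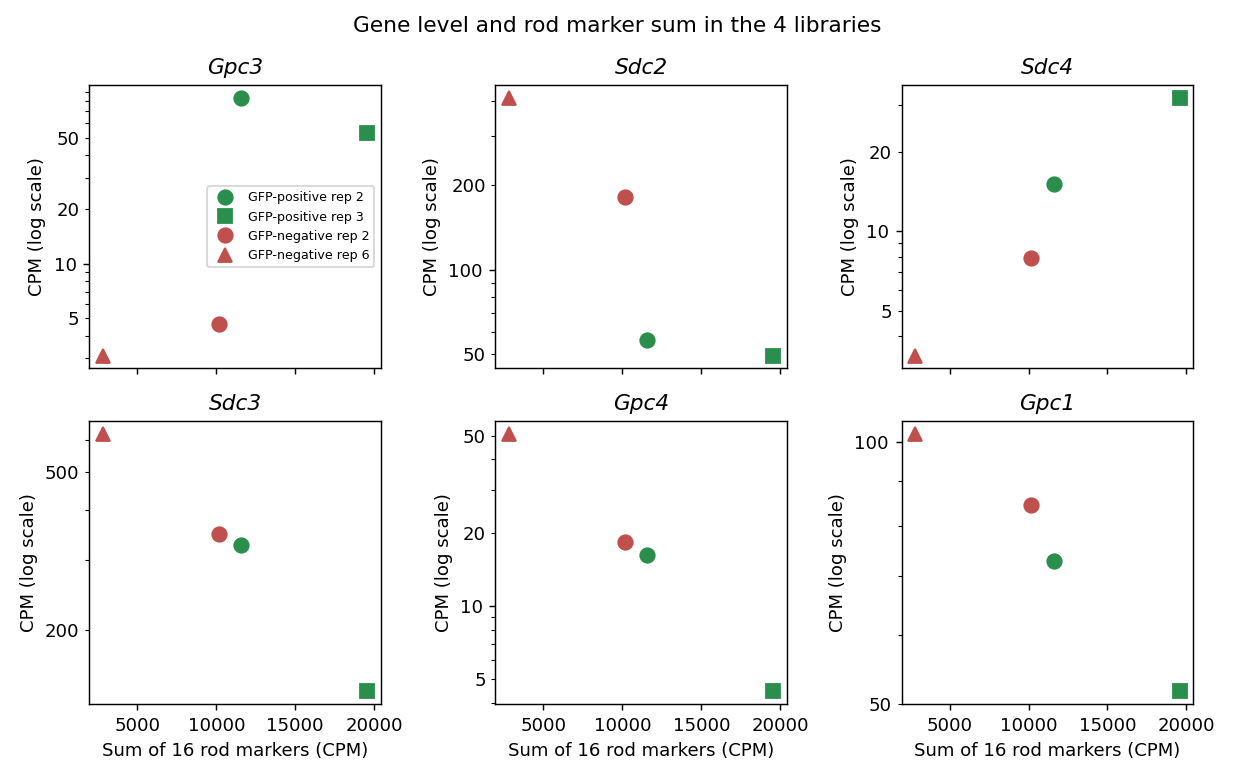
CPM on a log axis (vertical) of Gpc3, Sdc2, Sdc4, Sdc3, Gpc4 and Gpc1 against the sum of 16 rod markers in CPM (horizontal), with 1 symbol per library. Sdc4 has its 4 libraries in the order of the rod sum, and Sdc2, Sdc3, Gpc4 and Gpc1 have them in the reverse order. Gpc3 was at 83.1 CPM in GFP-positive replicate 2 (rod sum 11586) and 4.64 CPM in GFP-negative replicate 2 (rod sum 10174).

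The other marker sums were as follows in CPM. Cone markers, led by Opn1sw, gave 404 and 742 in GFP-positive libraries and 450.5 and 76.5 in GFP-negative libraries. Bipolar markers gave 1371 and 1920.1 in GFP-positive libraries and 1159.6 and 509 in GFP-negative libraries, and Müller glia markers gave 848 and 952 in GFP-positive libraries against 1711 and 2018 in GFP-negative libraries. The gap in the Müller sum is Dkk3, at 244 and 131 CPM in GFP-positive libraries and 1008 and 1577.5 CPM in GFP-negative libraries (edgeR adjusted p = 0.0342), while 7 of the 10 markers had a positive log2 fold change and the median was 0.22. Amacrine markers, led by Pax6, gave 4482 and 3412 in GFP-positive libraries and 5169.5 and 7538 in GFP-negative libraries, with none of the 13 at 0. Of these 13, 4 were called lower by edgeR (Gad1 at a log2 fold change of -3.62, Gad2 at -3.10, Tfap2c at -4.04 and C1ql2 at -3.98), 7 by DESeq2 and 4 by limma-voom, and 9 had separate lower ranges. None was called higher by these tools, with 1 higher and 9 lower at an unadjusted edgeR p under 0.05. Gad1 and Gad2 encode the enzymes that make GABA. Separate higher ranges were found for 2 of the 13, and neither passed in edgeR. Slc6a9 was at 85.8 and 74.7 CPM in GFP-positive libraries against 54.3 and 31.4 CPM in GFP-negative libraries. Snap25 was at 1713 and 1458 CPM in GFP-positive libraries against 1007 and 1120 CPM in GFP-negative libraries.

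Horizontal cell markers, led by Prox1, gave 273 and 215 in GFP-positive libraries and 210.4 and 134 in GFP-negative libraries. Ganglion cell markers, led by Nefl, gave 225 and 102 in GFP-positive libraries against 307 and 355 in GFP-negative libraries. Nefl, at 94.8 and 32.5 in GFP-positive libraries against 191 and 240 in GFP-negative libraries, weighed most in the ganglion cell sum. Of its 10 markers 4 had a positive log2 fold change and 6 a negative one, with a median of -0.48. Rbpms went the other way from Nefl, at 28.9 and 26.0 in GFP-positive libraries against 10.1 and 7.35 in GFP-negative libraries.

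Astrocyte markers, led by Slc1a2, gave 105 and 179 CPM in GFP-positive libraries and 129 and 49.1 CPM in GFP-negative libraries, with Aldh1l1 at 0 in both GFP-positive libraries. Slc1a2, at 99.3 and 169 CPM in GFP-positive libraries against 86.3 and 40.0 CPM in GFP-negative libraries, carried that sum, while the other 5 of the 6 markers had negative log2 fold changes and the list median was -1.75. Microglia markers gave 60.0 and 155 CPM in GFP-positive libraries and 140.0 and 115 CPM in GFP-negative libraries. Endothelial and pericyte markers gave 323 and 366 CPM in GFP-positive libraries and 29.0 and 26.2 CPM in GFP-negative libraries. The gap in that sum is Igfbp7, at 316 and 311 CPM in GFP-positive libraries against 8.37 and 14.4 CPM in GFP-negative libraries. It was the 1 marker of the list called by edgeR (log2 fold change 4.79, adjusted p = 0.0107). Of the 8 tested markers 7 had a positive log2 fold change, with a median of 0.75. The defining vessel genes Cdh5, Tek and Pdgfrb were at 0 in GFP-negative replicate 2, Cdh5, Tek and Kcnj8 in GFP-positive replicate 2, Kcnj8 in GFP-positive replicate 3 and Cldn5 in GFP-negative replicate 6. They were not absent elsewhere: GFP-positive replicate 3 had 509 counts of Cldn5, 629 of Rgs5, 263 of Flt1, 189 of Tek and 103 of Cdh5, where GFP-positive replicate 2 had 8, 3, 4, 0 and 0. Pdgfrb, a pericyte gene, had 132 and 377 counts in GFP-positive libraries and 0 and 22 counts in GFP-negative libraries (edgeR adjusted p = 0.168). The part of vessel, glial or other cells in the differences of Gpc3 and Sdc2 was not tested.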

How the data were processed

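RNA of the sorted cells was extracted with a nanoscale kit, and a SMART-Seq ultra low input kit gave the cDNA, per the labels' protocols. The submitters' processing notes name Trimmomatic, STAR 2.7.3a, MultiQC, limma and GRCm38; no source used here gives the annotation or strand setting. The authors deposited raw counts per Ensembl gene; a table of their own comparison was not used here. Groups follow the fluorescence label.

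Counts were tested with edgeR 4.0.16 (R 4.3.3; TMM scaling, filterByExpr with a minimum count of 10, robust glmQLFit and glmQLFTest with fraction as the only term, Benjamini-Hochberg over 17940 genes). The fit had 2 residual degrees of freedom, a median of 6.59 prior degrees of freedom borrowed from other genes, and a common biological coefficient of variation of 55.4%. Scripts were tested on simulated data. Levels between genes used CPM per kilobase of union exon (GENCODE M21; 55230 of 55471 IDs matched). Alternatives were other scalings, filters, DESeq2 1.42.0, limma-voom (limma 3.58.1), exon lengths and leaving out each library. Of the symbols, 27 had been turned into dates, so 1 horizontal cell marker (Septin4) was not matched.

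The members, lists and tests were chosen with earlier results of these data known. Named are all 10 genes, the called members and the 3 of highest level per kilobase among the tested genes of each pathway list, the leading gene and sum of each marker list (some leading genes are not reported here), the 5 nearest genes of each called member, and Gbx2. Counting intervals were not given; precision is limited by 2 libraries per fraction. The series text speaks of a sample of each fraction per animal, but no label ties the libraries to animals.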

Additional observations from a re-analysis of the deposited data

How the results depend on the processing

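Scaling did not turn the sign of any of the 10 genes; with total counts alone the median of all tested genes moved to 0.21 on the log2 scale. Over the 10 genes, 126 of 138 values under an alternative kept their direction and side of the threshold, 7 lost the call, 1 gained it (Sdc4 with DESeq2) and 4 turned sign. Those 4 left out a library: Gpc2 at -0.12 without GFP-positive replicate 2, Gpc5 at -2.19 without GFP-positive replicate 3 and at -0.75 without GFP-negative replicate 2, and Sdc1 at 0.16 without GFP-negative replicate 6. Leaving out a library gave log2 fold changes of -0.12 to 1.01 for Gpc2, -2.19 to 3.59 for Gpc5 and -0.56 to 0.16 for Sdc1. Gpc2 and Gpc5 were not tested under the strict filter. The number of the 10 genes called, 2, was 1 with no filter, limma-voom and the older quasi-likelihood fit (the last added after seeing the data), and 0 to 2 on leaving out a library. The number of all genes called, 198, was 106 with no filter, 794 with DESeq2, 92 with limma-voom and 48 with the older fit, and 1 to 336 on leaving out a library. The pathway genes called, 5, were 2 with no filter, 10 with DESeq2, 2 with limma-voom and 1 with the older fit, and 0 to 9 on leaving out a library. The mean share of Gpc3 in GFP-positive libraries, 22.6%, was 23.5% with the longest transcript and 14.2% with no length; the glypican share there, 40.8%, was 42.6% and 34.3%; the Sdc2 share in GFP-negative libraries, 39.4%, was 30.1% with no length. The cause of these moves was not tested. No paired analysis was possible because the fractions share only replicate number 2. Counts were low for the scarce Gpc5, at 12 counts (0.287 CPM) in its lowest library, GFP-negative replicate 2. The part of depth in this was not tested.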

Other observations

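Gpc3 and Gpc4 lie 107.2 kb apart on the X chromosome, on the same strand. Gpc3 was higher in both GFP-positive libraries, and Gpc4 was lower in both without passing the test. Gpc5 and Gpc6 lie 400.1 kb apart on chromosome 14 and also differed: Gpc6 over Gpc5, per kilobase, was 13.2 and 1.60 in GFP-positive libraries and 37.5 and 2.25 in GFP-negative libraries, so that the ratio was high in both replicates numbered 2.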
